A study of Mus musculus with 2 samples.

Results

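The EGF receptor family and its ligands were followed through every cell class of newborn mouse epidermis by single-cell RNA sequencing (scRNA-seq). The 10 genes were chosen by symbol from the 27998 genes of both count matrices, and each was found once in each. They are the receptors Egfr, Erbb2 and Erbb3, the ligands Areg, Ereg, Epgn, Hbegf, Tgfa and Btc, and the feedback inhibitor Errfi1. The 2 libraries are from dorsal skin of newborn male C57BL/6J animals (postnatal day 0) that lack Chrm3, which encodes a muscarinic receptor for acetylcholine. Each is 1 Chrm3 knockout (KO) animal, named KO mouse 1 and KO mouse 2. The labels name no Cre line or promoter, and both animals carry the same genotype. The epidermis was lifted off overnight and dead cells were removed before capture. No wild-type (WT) library was used, so the values are levels in KO epidermis, and the comparisons are between cell classes of the same animals.

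Receptors of the EGF family are tyrosine kinases that pair on ligand binding and signal through RAS and MAP kinases. The ligands are made as membrane proteins that are shed by proteases, with the membrane proteases ADAM10 and ADAM17 and the inactive rhomboids encoded by Rhbdf1 and Rhbdf2 as regulators. Erbb2 binds no known ligand and Erbb3 has little kinase activity of its own, so both act in pairs with other receptors. In skin the pathway is known for keratinocyte (KC) proliferation, hair follicle development and wound repair.

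The files hold UMI counts, in which a unique molecular identifier (UMI) marks each captured transcript so that PCR copies count once. KO mouse 1 had 109756784 UMIs in 10816 barcodes and KO mouse 2 had 166441732 in 15867. After the filter on genes and mitochondrial UMIs, 7607 and 11881 cells were left, with medians of 10480 and 10577 UMIs. Of the barcodes, 127 were found in both libraries and 34 in both after the filter, where 5 of these 34 pairs lay in the same cluster. Without them, all 44 calls on the members described below kept their direction and their side of the threshold. Clustering gave 24 clusters, of which 19 were named from marker lists as 17 classes. The members and the other pathway genes were left out of the genes used for clustering. The other 5 clusters, with 24.4% and 24.2% of the cells, had no clear name. The Merkel-like class (20 and 19 cells) was too small for the tests. Stage names for the interfollicular epidermis (IFE) also come from these lists. Krt14, Krt1 and Lor are in the lists, so their levels describe the classes and are no separate check. Resting basal-like cells (986 and 1757) had Krt14 at 14737 and 15536 CPM (counts scaled to the same total of UMIs in every class). Differentiated-like cells (135 and 152) had Krt1 at 31052 and 33914 CPM, and transitional-like cells (411 and 609) had both. The terminally differentiated-like class was small (48 and 62 cells) and less pure. It had Lor at 18026 and 12066 CPM, but also Krt14 at 4519 and 5173, the dividing-cell gene Mki67 at 231 and 182 and the follicle gene Lhx2 at 250 and 165 CPM. In differentiated-like cells Mki67 was at 14.9 and 24.5 CPM and Lhx2 at 26.3 and 35.3 CPM. The part of these other cells in the values of that class was not tested. Follicle-like cells also held S-phase genes. Their 10 S-phase markers summed to 1309 and 1431 CPM, against 405 and 491 in resting basal-like and 1583 and 1633 in S-phase basal-like cells. The part of the cell cycle in the follicle-like comparisons was not tested.

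In all cells kept, Egfr had 4800 and 6884 UMIs in KO mouse 1 and KO mouse 2, Erbb3 had 5091 and 5360, Errfi1 had 3356 and 4158, and Erbb2 had 2312 and 3292. Hbegf had 823 and 1075 UMIs, Tgfa 698 and 821, Areg 109 and 124, Btc 78 and 60, Epgn 56 and 87, and Ereg 20 and 25. These sums set how finely each gene can be described, because intervals around a level cover counting error only and are wide for the last 4 ligands.

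**Figure D1:**
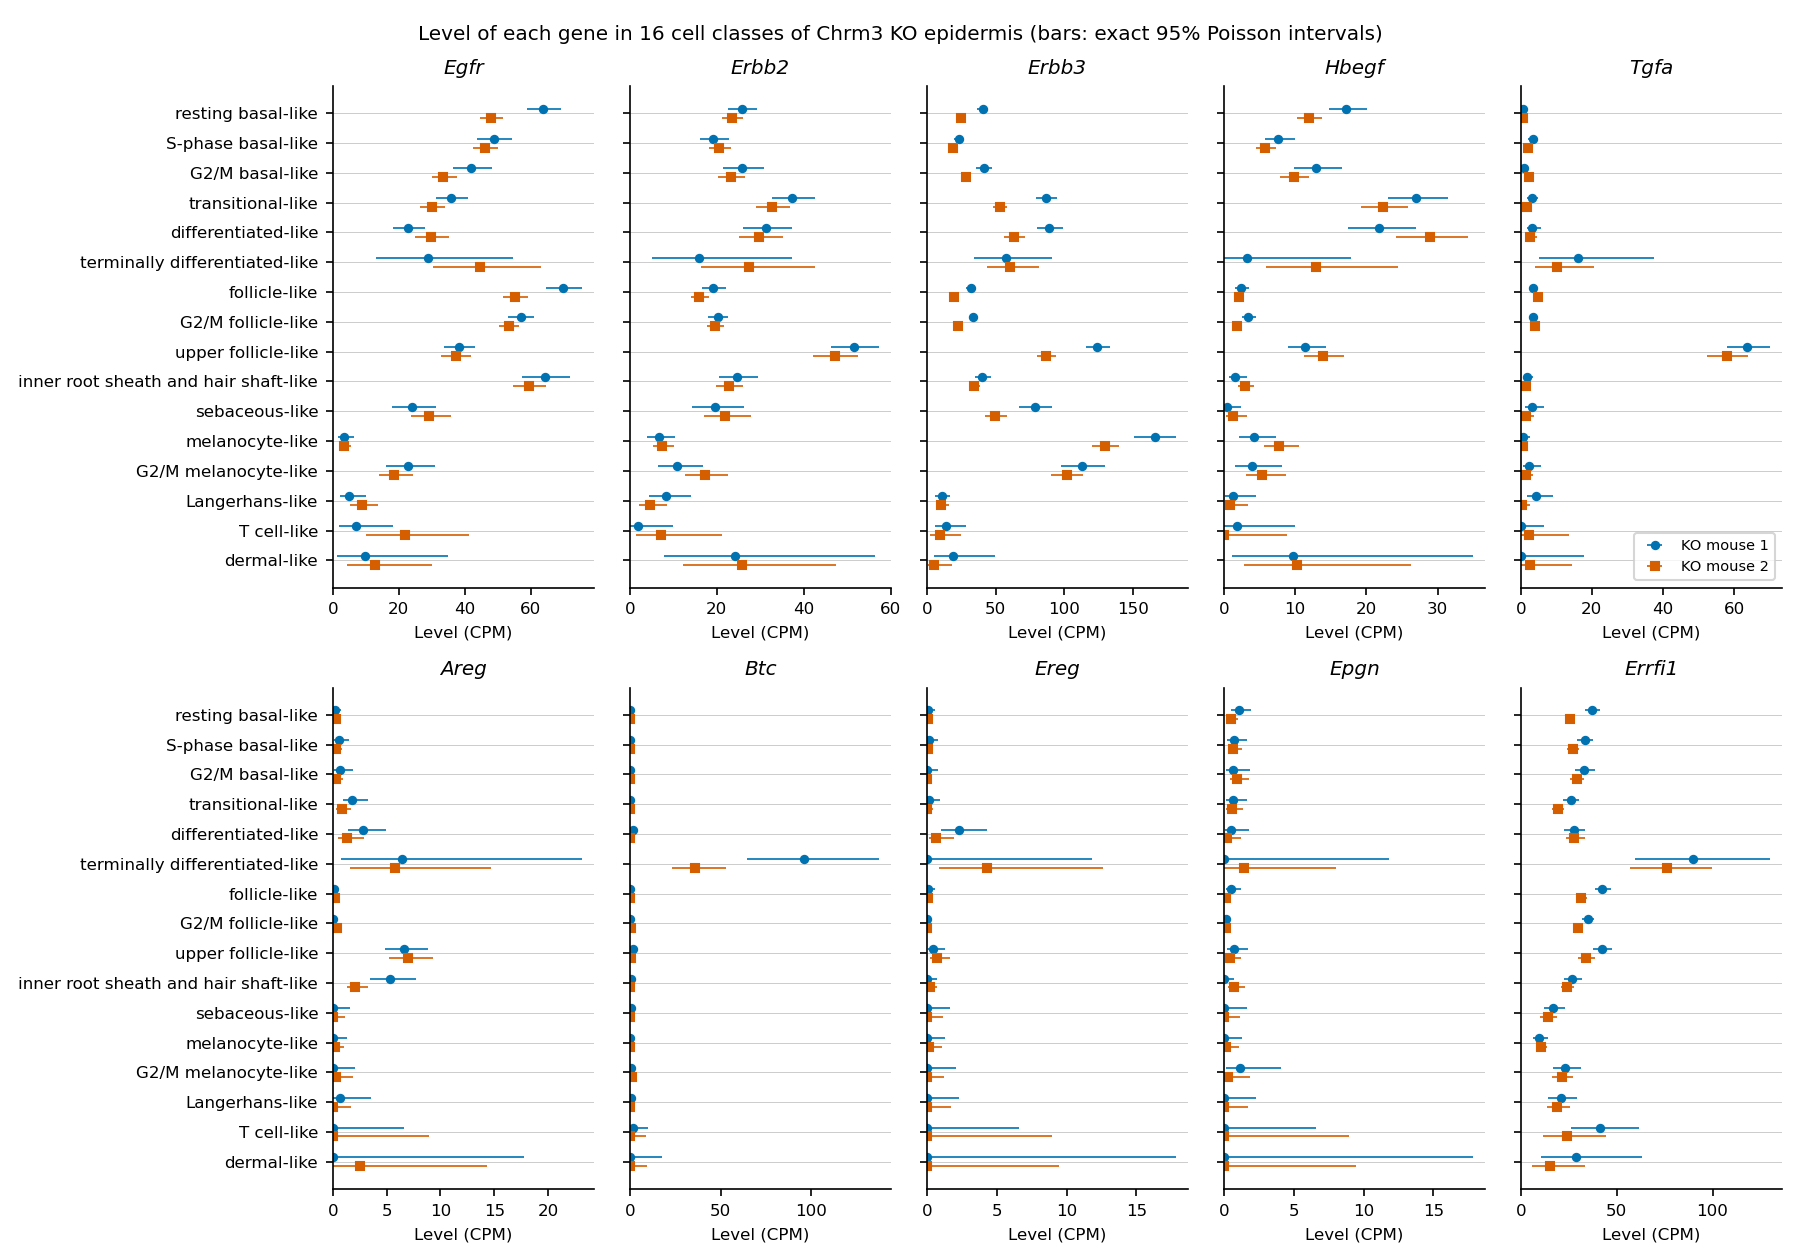
Level of the 10 genes (CPM, x axis, from 0 in each panel) in 16 cell classes (y axis) of KO mouse 1 (circles) and KO mouse 2 (squares), with exact 95% Poisson intervals of the UMI count. Tgfa stood highest in upper follicle-like cells (63.7 and 57.9 CPM), Btc and Errfi1 in terminally differentiated-like cells, and Erbb3 in melanocyte-like cells (166 and 130 CPM).

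Differences between classes were tested on counts summed per mouse and class, in 1 edgeR quasi-likelihood fit over 13847 genes with Benjamini-Hochberg (BH) adjustment and a threshold of 0.05. Epgn had too few counts to be tested, which left 9 of the 10 members. Of these 9, 6 were called in transitional-like against resting basal-like cells (5 higher, 1 lower), where 28.8% of all genes were called (15.4% higher, 13.5% lower). In differentiated-like against resting basal-like cells, 7 were called (6 higher, 1 lower), against 51% of all genes (27.4% higher, 23.6% lower). Between terminally differentiated-like and differentiated-like cells, 4 were called (2 higher, 2 lower), against 29.9% (13.6% higher, 16.3% lower). In dividing basal-like cells, the mean of the S-phase and G2/M classes, 4 were called against resting ones (1 higher, 3 lower), with 28.8% of all genes (14.1% higher, 14.8% lower). The median absolute log2 fold change of the 9 members in these comparisons was 0.68, 1.53, 1.07 and 0.45, and that of all genes was 0.36, 0.69, 0.74 and 0.3.

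Outside the IFE the members were also set against resting basal-like cells. In follicle-like cells 3 of 9 were called (1 higher, 2 lower), against 39.7% of all genes (21% higher, 18.7% lower). In sebaceous-like cells 5 were called (2 higher, 3 lower), against 47.8% (26.2% and 21.6%). Melanocyte-like cells had 5 called (1 higher, 4 lower), against 53% (28.8% and 24.1%), and Langerhans-like cells 5 (1 higher, 4 lower), against 49.5% (29.3% and 20.3%). The upper follicle-like class was added to the comparisons after its levels had been seen, with 5 members called (4 higher, 1 lower), against 43.5% (23.7% and 19.8%). The share of members called was below that of all genes in follicle-like cells and near it in the melanocyte-like, Langerhans-like and sebaceous-like classes, so these counts are no result about the members as a group.

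**Figure D2:**
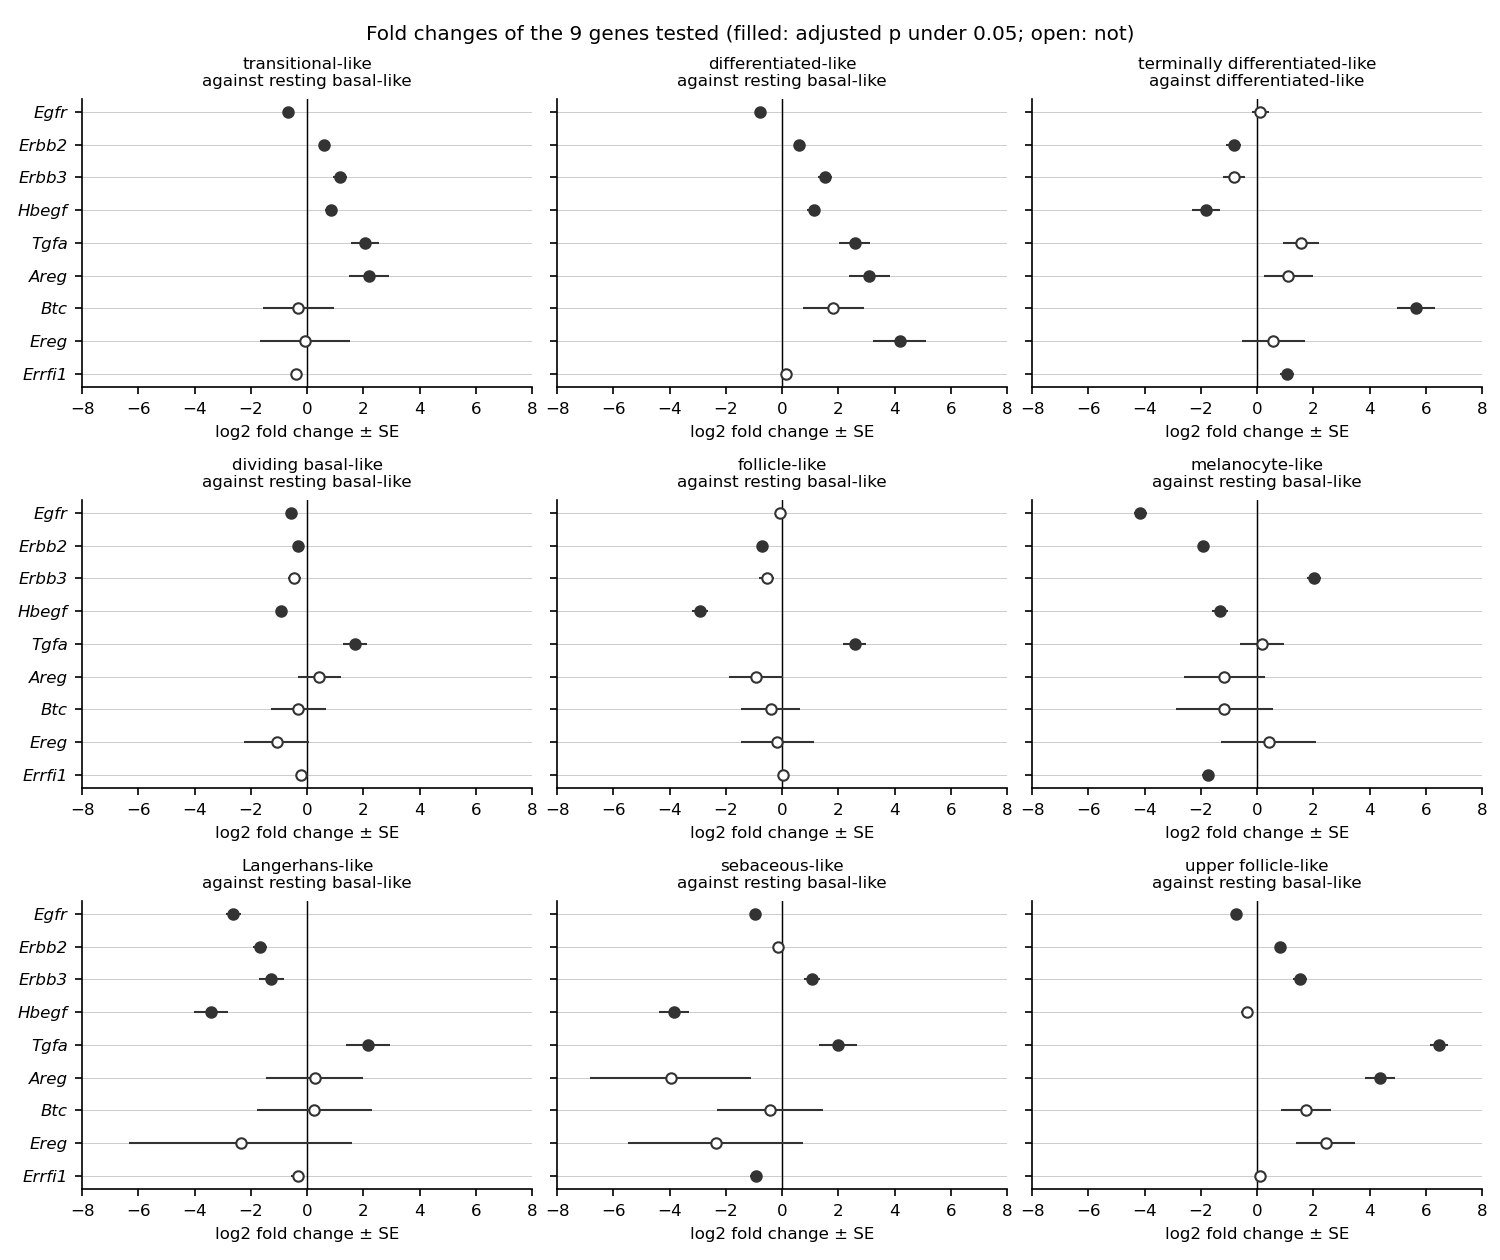
log2 fold change ± SE (x axis) of the 9 genes tested (y axis) in 9 comparisons of cell classes, from edgeR's quasi-likelihood fit over both mice. Filled points had a BH-adjusted p under 0.05. Tgfa was called higher in 7 of the 9 comparisons, and Egfr was called lower in 7. All of these calls were against resting basal-like cells, which had the lowest Tgfa mean of the 16 classes (0.574 CPM). The Tgfa call in Langerhans-like cells turned its direction without KO mouse 1 and with likely doublets removed.

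Egfr, the receptor of all 6 ligands here, was highest in basal and follicle cells. Its level was 63.7 and 47.9 CPM in resting basal-like cells, 48.9 and 46.1 in S-phase and 42 and 33.5 in G2/M basal-like cells. It was 35.9 and 30 CPM in transitional-like and 22.8 and 29.8 in differentiated-like cells, both below resting basal-like cells in each mouse. The log2 fold change against resting basal-like cells was -0.68 ± 0.15 in transitional-like cells (BH-adjusted p = 0.00088, edgeR quasi-likelihood test) and -0.78 ± 0.17 in differentiated-like cells (0.000267). Dividing basal-like cells were lower by -0.58 ± 0.12 (0.000695). In terminally differentiated-like cells Egfr was at 28.8 and 44.5 CPM, with no call against differentiated-like cells (0.11 ± 0.3, adjusted p = 0.837). Without KO mouse 1 the calls in differentiated-like (-0.49, adjusted p = 0.0688) and dividing cells (-0.42, 0.0997) ended. Over all alternatives the adjusted p ran from 7.32e-08 to 0.0688 and from 2.1e-05 to 0.0997.

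In follicle-like cells Egfr was at 69.8 and 55.2 CPM, a mean of 62.5 ± 10.4 (SD, n = 2), which overlapped resting basal-like cells (55.8 ± 11.2). The class joined a cluster led by Sfrp1, Tbx1 and Lgr5 with Egfr at 94.2 and 77.8 CPM and a Shh-led cluster at 39.9 and 29.7 CPM. The highest Egfr level of the larger clusters was in an unnamed one led by Tagln, Igfbp7 and Foxe1, with 105 and 109 CPM and the follicle gene Lhx2 at 658 and 609 CPM. Melanocyte-like cells were lowest, at 3.49 and 3.42 CPM (10 and 18 UMIs), with a log2 fold change of -4.15 ± 0.24 against resting basal-like cells (adjusted p = 1.98e-14). Langerhans-like cells followed at 5.06 and 8.83 CPM (-2.63 ± 0.27, 2.15e-09). Without KO mouse 2 this Langerhans-like value was -3.50 (adjusted p = 3.03e-08), and with likely doublets removed it was -3.58, the lower end of its alternatives. Sebaceous-like (24.0 and 29.2 CPM) and upper follicle-like cells (38.1 and 37.3) were lower than resting basal-like cells as well (-0.96 ± 0.18, adjusted p = 5.84e-05, and -0.74 ± 0.15, 0.00017).

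Erbb2, the coreceptor without a ligand, was spread more evenly over KCs. It was at 25.7 and 23.5 CPM in resting basal-like, 37.4 and 32.7 in transitional-like and 31.4 and 29.8 in differentiated-like cells. Both mice were higher in the last 2 classes, by a log2 fold change of 0.59 ± 0.13 (BH-adjusted p = 0.00106, edgeR) and 0.61 ± 0.14 (0.000725). The TMM scaling of edgeR moved these folds by 0.08 and 0.29 against plain library size, so they are not ratios of the CPM. Upper follicle-like cells had the highest mean, 49.3 ± 3.16 CPM (SD, n = 2), and did not overlap any other class. Follicle-like cells were lower than resting basal-like cells (19.1 and 16 CPM, -0.72 ± 0.13, adjusted p = 8.35e-05). Melanocyte-like (6.63 and 7.40 CPM) and Langerhans-like cells (8.22 and 4.65) were lower by -1.93 ± 0.19 (8.87e-10) and -1.67 ± 0.25 (2.41e-06). The changes in dividing (-0.33 ± 0.12, adjusted p = 0.0338) and terminally differentiated-like cells (-0.83 ± 0.27, 0.0214) were lost without either mouse. Counting all alternatives, they were lost in 6 of 10 and 5 of 11. With KO mouse 1 left out they were -0.24 (0.426) and -0.45 (0.424), and without KO mouse 2 -0.36 (0.218) and -1.47 (0.0568). The transitional-like call was also lost without KO mouse 1 (0.53, 0.0591). With cells thinned to 3000 UMIs, a level without a test, the direction in terminally differentiated-like cells turned. The mean there was 39.4 ± 3.27 CPM (SD, n = 2), with an Erbb2 UMI in 3 and 6 cells, against 26.6 ± 6.02 in differentiated-like cells. Thinning left out 21 of 48 and 14 of 62 terminally differentiated-like cells, those under 3000 UMIs, so this is not a change of depth alone. Over all alternatives the adjusted p of these 3 ran from 0.0133 to 0.716, from 0.0175 to 0.424 and from 6.36e-06 to 0.0591.

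Erbb3, which relays neuregulin signals through its partners, followed suprabasal stages and melanocytes. Resting basal-like cells had 40.6 and 25 CPM, transitional-like cells 87.0 and 53.2, and differentiated-like cells 89.1 and 63.3. The lowest suprabasal value of either stage was above the highest resting one. The log2 fold change was 1.18 ± 0.25 in transitional-like (BH-adjusted p = 0.00054, edgeR) and 1.53 ± 0.26 in differentiated-like cells (1.23e-05). It stayed at 57.7 and 60.3 CPM in terminally differentiated-like cells, without a call against differentiated-like cells (-0.82 ± 0.4, adjusted p = 0.132). Outside the IFE, upper follicle-like cells (124 and 86.9 CPM, 1.53 ± 0.25, 8e-06) and sebaceous-like cells (78.5 and 49.9 CPM, 1.06 ± 0.28, 0.00229) were higher than resting basal-like cells. The sebaceous-like call was lost under 5% mitochondrial UMIs (0.77, 0.13; range over the alternatives 5.87e-10 to 0.13).

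Melanocyte-like cells, led by Pmel and Dct, had the highest Erbb3 mean, 148 ± 25.5 CPM (SD, n = 2). The receptor was counted in 71.9% and 67.3% of these cells (exact 95% binomial intervals 66.7 to 76.6 and 63.3 to 71.2), against 7.69% and 5.26% of T cell-like cells. The median depths were 7639 and 8499 UMIs in melanocyte-like and 9303 and 8486 in T cell-like cells. The log2 fold change against resting basal-like cells was 2.03 ± 0.25 (BH-adjusted p = 7.22e-08, edgeR). Egfr was counted in only 2.10% and 3.05% of the same melanocyte-like cells. In G2/M melanocyte-like cells Erbb3 was at 113 and 102 CPM and Egfr at 22.7 and 18.6, but Krt14 was also higher there (1860 and 2994 CPM, against 240 and 343 in the other melanocyte-like cells). With likely doublets removed, the Egfr mean of this class was 1.62 ± 0.54 CPM (SD, n = 2), against 20.6 ± 2.95 with them, and the Erbb3 mean was 133 ± 3.73, against 107 ± 7.89. Langerhans-like cells had less Erbb3 (10.8 and 10.7 CPM, -1.27 ± 0.44, adjusted p = 0.0171), a call lost without KO mouse 1 (-1.01, 0.172; range over the alternatives 4.05e-09 to 0.172). With likely doublets removed, the log2 fold changes in Langerhans-like cells were -2.46 for Erbb3, -2.55 for Erbb2 and -5.04 for Hbegf. Erbb3 was higher in KO mouse 1 in 15 of 16 classes, with a median ratio of 1.44. Fos, a gene induced by cell handling, was also higher in KO mouse 1, in 16 of 16 classes (median ratio 1.61). Other such genes were less uniform. Hspa1a was higher in KO mouse 1 in 11 of 16 classes (1.05), and Hspa1b was higher in KO mouse 2 in 12 of 16 (0.801). The part of handling in the Erbb3 levels was not tested.

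**Figure D3:**
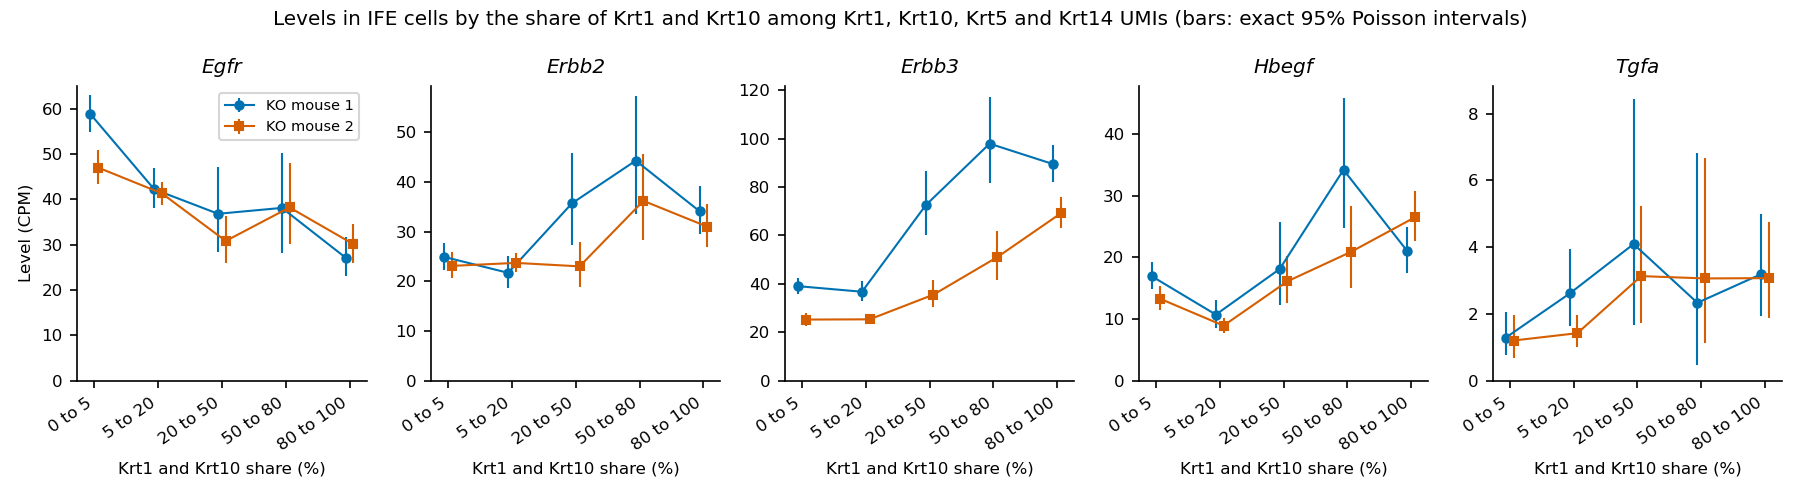
Levels (CPM, y axis from 0) of 5 genes in IFE cells of KO mouse 1 (circles) and KO mouse 2 (squares), grouped by the share of Krt1 and Krt10 among the Krt1, Krt10, Krt5 and Krt14 UMIs of the cell (x axis, percent), with exact 95% Poisson intervals. From the lowest to the highest share, Egfr went from 58.8 and 47.0 to 27.1 and 30.1 CPM and Erbb3 from 39.0 and 25.2 to 89.4 and 69.2 CPM.

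The same order was seen without cluster borders. When IFE cells were grouped by the share of Krt1 and Krt10 among their main keratin UMIs, Egfr was at 58.8 and 47.0 CPM in cells under 5% and at 27.1 and 30.1 CPM in cells over 80%. Erbb3 was at 39.0 and 25.2 CPM at the low end and at 89.4 and 69.2 CPM at the high end. Hbegf was lowest in cells with a share of 5 to 20% (10.7 and 8.91 CPM) and higher over 80% (21.0 and 26.5 CPM). These groups share their cells with the classes and are a description.

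Hbegf, a ligand known from wound repair, was higher in the first suprabasal stages of the IFE than in the basal layer. It was at 17.2 and 12 CPM in resting basal-like, 27.0 and 22.4 in transitional-like and 21.8 and 28.9 in differentiated-like cells. Both suprabasal stages lay above resting basal-like cells in each mouse (0.85 ± 0.22, BH-adjusted p = 0.00347, and 1.12 ± 0.23, 0.000174, edgeR). Terminally differentiated-like cells had 1 and 9 UMIs (3.20 and 12.9 CPM), lower than differentiated-like cells (-1.83 ± 0.5, 0.00526). Dividing basal-like cells were lower than resting ones (-0.92 ± 0.2, adjusted p = 0.000904), with 7.67 and 5.83 CPM in S phase and 12.9 and 9.79 in G2/M. The 10 genes listed for stress of dissociation, such as Fos, summed to 6206 and 4103 CPM in resting basal-like cells and to 3551 and 2245 in S-phase ones. Their part in the Hbegf difference was not tested. S-phase basal-like cells also held more of the 13 follicle markers (4506 and 4417 CPM) than resting basal-like cells (2338 and 2321). Follicle-like cells had 5178 and 4800 CPM. The part of follicle cells in the comparisons of dividing basal-like cells was not tested.

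Hbegf was far lower in other epithelial lineages. It was at 2.40 and 2.07 CPM in follicle-like cells (-2.91 ± 0.28, BH-adjusted p = 1.66e-09, edgeR) and at 0.444 and 1.27 in sebaceous-like cells (1 and 4 UMIs, -3.85 ± 0.52, 4.86e-07). Upper follicle-like cells were the exception among follicle classes, at 11.4 and 13.9 CPM, without a call against resting basal-like cells (-0.36 ± 0.23, 0.235). Melanocyte-like cells had 4.18 and 7.78 CPM (-1.31 ± 0.29, 0.000428) and Langerhans-like cells 1.27 and 0.930 CPM (-3.41 ± 0.6, 2.01e-05). Calls were lost without KO mouse 1 in dividing (-0.80, adjusted p = 0.0516), melanocyte-like (-0.79, 0.0739) and terminally differentiated-like cells (-1.48, 0.0682). They were lost without KO mouse 2 in transitional-like (0.68, 0.145), differentiated-like (0.58, 0.169) and terminally differentiated-like cells (-3.25, 0.0548). These are the highest adjusted p of their alternatives, except in transitional-like cells, where a limit of 5% mitochondrial UMIs gave 0.245 (0.66). Without KO mouse 2 the values were also larger in melanocyte-like (-2.23, 0.000267) and sebaceous-like cells (-5.19, 1.82e-05).

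Tgfa, a ligand whose loss is known to give wavy hair, was concentrated in the upper follicle. This class, led by Krt79, held 435 of 698 Tgfa UMIs of KO mouse 1 (62.3%) in 4.3% of the cells, and 412 of 821 of KO mouse 2 (50.2%) in 2.61% of the cells. The level was 63.7 and 57.9 CPM, against 0.535 and 0.613 in resting basal-like cells (5 and 10 UMIs). It was counted in 56.0% (exact 95% binomial interval 50.4 to 61.4) and 53.5% (47.8 to 59.2) of upper follicle-like cells. With each cell thinned to 3000 UMIs, these shares were 16.9% and 14.4%, against 0.102% and 0.118% of resting basal-like cells. In melanocyte-like cells, taken as a view of free RNA that can also hold doublets, the thinned share was 0.31% and 0.548%. Without thinning it was 0.599% and 0.718%, against 0.507% and 0.569% of resting basal-like cells. Resting basal-like cells were not above this view, so the sizes of Tgfa fold changes against them are uncertain. The log2 fold change against resting basal-like cells was 6.47 ± 0.32 (BH-adjusted p = 2e-15, edgeR), in a comparison added after the levels were seen. It was 5.22 at the finer clustering described below and 7.29 under 5% mitochondrial UMIs, the ends of its alternatives.

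Tgfa also went up with Krt79 when cells outside the sebaceous-like class were grouped by their Krt79 level. The groups give summed counts, share their cells with the classes and are a description. Cells with under 500 CPM of Krt79 had Tgfa at 2.66 and 2.80 CPM, and those from 500 to 2000 had 9.37 and 7.49. Cells from 2000 to 8000 had 37.9 and 36.9, and cells with 8000 or more had 69.2 and 71.8 CPM. Both mice went up at each step. Krt79 alone did not mark Tgfa, because sebaceous-like cells had Krt79 at 4717 and 3874 CPM but Tgfa at 3.11 and 1.59 CPM (7 and 5 UMIs, of which 5 and 2 in single cells).

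**Figure D4:**
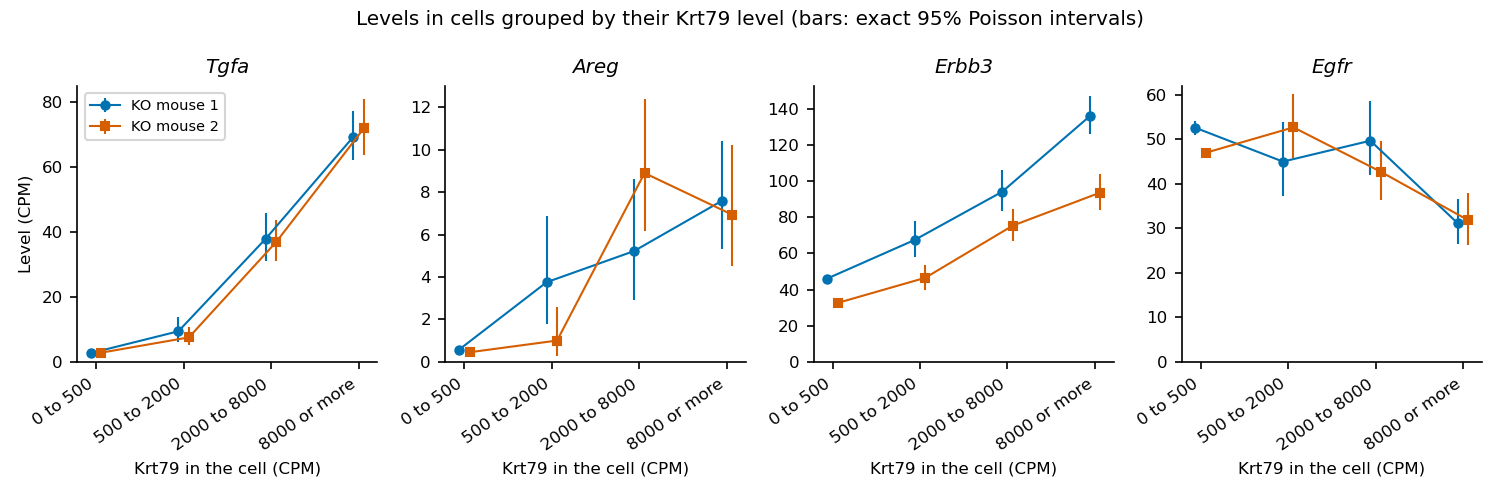
Levels (CPM, y axis from 0) of Tgfa, Areg, Erbb3 and Egfr in cells of KO mouse 1 (circles) and KO mouse 2 (squares), grouped by the Krt79 level of the cell (x axis, CPM), with exact 95% Poisson intervals. Sebaceous-like cells were left out. Tgfa went from 2.66 and 2.80 CPM in the lowest group to 69.2 and 71.8 CPM in the highest, and Egfr went from 52.6 and 47.0 to 31.1 and 31.8 CPM.

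Outside the upper follicle Tgfa was low but not even. It was at 3.13 and 1.77 CPM in transitional-like, 3.29 and 2.65 in differentiated-like and 16 and 10.1 in terminally differentiated-like cells (5 and 7 UMIs). Each lay above resting basal-like cells in both mice. The difference on the log2 scale was 2.05 ± 0.5 in transitional-like (BH-adjusted p = 0.00239, edgeR) and 2.59 ± 0.55 in differentiated-like cells (0.000224), and terminally differentiated-like cells were not called against differentiated-like ones (1.55 ± 0.64, 0.0674). Follicle-like cells had 3.35 and 4.82 CPM (2.58 ± 0.41, 1e-05), and dividing basal-like cells were higher too (1.70 ± 0.44, 0.00415), with 3.33 and 2.05 CPM in S phase and 0.845 and 2.45 in G2/M. An unnamed cluster with basal markers, led by Ccl27a, Pou3f1 and Slco2a1, had Tgfa at 6.13 and 5.35 CPM, and an unnamed Ncam1-led cluster had 6.76 and 6.18. At the finer clustering of resolution 1.2, a cluster led by Pou3f1 and Ccl27a was named resting basal-like, and the fold changes fell to 0.91 in transitional-like (adjusted p = 0.0736), 1.24 in differentiated-like (0.0172) and 1.2 in follicle-like cells (0.00375).

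Several Tgfa calls were lost without 1 mouse and in other alternatives as well. In transitional-like, sebaceous-like and dividing cells the calls were lost in 2 of 11, 3 of 11 and 2 of 10 alternatives. Without KO mouse 1 those in transitional-like (1.54, BH-adjusted p = 0.153, edgeR) and sebaceous-like cells (1.28, 0.355; 1.98 ± 0.68, 0.0169 with both) were lost. Without KO mouse 2 the one in dividing cells was lost (1.46, 0.256). Over the alternatives the adjusted p ran from 5.74e-05 to 0.153, from 0.00273 to 0.601 and from 9.09e-05 to 0.256. In Langerhans-like cells Tgfa was called higher (2.16 ± 0.79, 0.0253), but the counts were 7 UMIs in KO mouse 1 and 1 in KO mouse 2, and 4 upper follicle markers summed to 450 and 68.3 CPM there. Without KO mouse 1 the value was -0.18 (0.963), without KO mouse 2 it was 3.15 (0.00884), and with likely doublets removed it was -0.39 (0.859). The range of adjusted p over its alternatives was 0.00305 to 0.963.

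Areg, amphiregulin, was counted in few cells. Upper follicle-like cells had 45 and 50 UMIs (6.59 and 7.03 CPM), inner root sheath and hair shaft-like cells 26 and 20 (5.29 and 2.11 CPM), differentiated-like cells 11 and 6 (2.78 and 1.32 CPM) and transitional-like cells 11 and 7 (1.81 and 0.824 CPM). Resting basal-like cells had 2 and 5 (0.214 and 0.307 CPM). Sebaceous-like cells had none in 100 and 157 cells, which allows a share of cells with a UMI of up to 3% and 1.91%. Upper follicle-like cells were higher than resting basal-like cells by 4.37 ± 0.54 (BH-adjusted p = 1.81e-07, edgeR), though 1 cell of KO mouse 2 held 20 of the 50 UMIs. By class, 7.34% and 6.77% of upper follicle-like cells had an Areg UMI, against 0.203% and 0.285% of resting basal-like cells.

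In the IFE Areg was called higher in transitional-like (2.20 ± 0.71, BH-adjusted p = 0.0211, edgeR) and differentiated-like cells (3.10 ± 0.73, 0.000809) than in resting basal-like cells. The ratios of summed counts were 4.53 (exact 95% interval 1.81 to 12.8) and 7.35 (2.89 to 21.0). These intervals pool the mice and take each UMI as independent. In differentiated-like cells the 11 and 6 UMIs lay in 4 cells of each mouse, with 5 and 2 in single cells. Those of transitional-like cells (11 and 7) lay in 6 and 7 cells. The transitional-like call was lost without KO mouse 1 (1.42, 0.423), without KO mouse 2 (3.00, 0.0627), with likely doublets removed (1.87, 0.0573) and under 5% mitochondrial UMIs (1.83, 0.532). Over its alternatives the adjusted p ran from 0.00767 to 0.532. The differentiated-like call was lost without KO mouse 1 (2.24, 0.106) and held without KO mouse 2 (3.83, 0.00601), with a range of 4.44e-05 to 0.106. Terminally differentiated-like cells had 2 and 4 UMIs (6.41 and 5.74 CPM), without a call against differentiated-like cells (1.10 ± 0.87, 0.393).

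Btc, betacellulin, was concentrated in a few terminally differentiated-like cells. That class held 30 of 78 Btc UMIs of KO mouse 1 (38.5%) in 0.631% of the cells, and 25 of 60 of KO mouse 2 (41.7%) in 0.522%. The level was 96.1 and 35.9 CPM, against 1.77 and 0 in differentiated-like cells (7 and 0 UMIs) and 0.321 and 0.245 in resting basal-like cells. The UMIs lay in 6 of 48 and 5 of 62 cells, with 14 and 20 of them in single cells. Of the 30 and 25 UMIs, 28 and 25 were in the cells above the median of Lor within the class. Melanocyte-like cells had 1 and 0 Btc UMIs. Their Lor was at 48.5 and 70.0 CPM, and whether it came from free RNA of cornifying cells or from doublets was not tested.

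The log2 fold change of Btc in terminally differentiated-like against differentiated-like cells was 5.65 ± 0.68 (BH-adjusted p = 2.7e-07, edgeR), and the ratio of summed counts was 66.1 (exact 95% interval 30 to 172). With the cell of the most Btc UMIs left out in each mouse, the value was 4.36 (adjusted p = 0.000438). Without KO mouse 1 the fitted value was 10.85 (1.03e-05), where KO mouse 2 has no Btc UMI in differentiated-like cells, so this fold is not a measured size. Under 5% mitochondrial UMIs it was 4.64 (0.00107). The range of adjusted p over the alternatives was 4.34e-21 to 0.00107.

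Ereg and Epgn, epiregulin and epigen, were near the limit of detection. Ereg had 9 and 3 UMIs in differentiated-like cells (2.28 and 0.662 CPM), with 5 and 2 of them in single cells, and 1 and 1 in resting basal-like cells. It was called higher in differentiated-like cells (4.18 ± 0.95, BH-adjusted p = 0.000883, edgeR), with a ratio of summed counts of 18.1 (exact 95% interval 4.04 to 167). This was lost without KO mouse 1 (3.29, 0.114) and with DESeq2 (4.44, 0.177), with a range over the alternatives from 0.00062 to 0.177. Terminally differentiated-like cells had 0 and 3 Ereg UMIs and upper follicle-like cells 3 and 5. Epgn, not tested, was highest among larger clusters in the unnamed Ccl27a-led one, at 2.30 and 2.41 CPM (12 and 23 UMIs). It had 1.07 and 0.552 CPM in resting basal-like cells (10 and 9 UMIs), and none in sebaceous-like, Langerhans-like, T cell-like and dermal-like cells of both mice.

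Errfi1, also known as Mig6, binds and inhibits the EGF receptor kinase and is itself induced by the pathway. It was at 37.3 and 25.7 CPM in resting basal-like, 26.0 and 19.3 in transitional-like and 27.6 and 28.0 in differentiated-like cells, with no call of either suprabasal stage against resting basal-like cells (adjusted p = 0.0834 and 0.569, edgeR). Terminally differentiated-like cells had 89.7 and 76.1 CPM (28 and 53 UMIs), above every other class in both mice. Against differentiated-like cells the difference was 1.07 ± 0.25 (BH-adjusted p = 0.00151). The call was lost without KO mouse 2 (1.2, 0.0505), and the value was 1.12 (0.000935) without the cells of the most Btc UMIs, within a range of adjusted p from 3.92e-06 to 0.0505. In the cells above the median of Lor it was 122 and 92.7 CPM (16 and 25 UMIs). In the others it was 66.2 and 65.6 CPM (12 and 28 UMIs), and the 95% Poisson intervals overlapped in both mice. Melanocyte-like (9.76 and 10.4 CPM) and sebaceous-like cells (16.9 and 14.0) were lower than resting basal-like cells (-1.76 ± 0.21, 5.89e-08, and -0.94 ± 0.22, 0.0007). In follicle-like cells Errfi1 was at 42.6 and 31.5 CPM, with no call (0.02 ± 0.15, 0.966).

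The ligand genes of this family are partly clustered in the genome. On GRCm38 (mm10, GENCODE M21), Epgn (91027464 to 91035215), Ereg (91074622 to 91093646), Areg (91139599 to 91148432) and Btc (91357261 to 91402994, minus strand) lie within 376 kb of chromosome 5. Egfr (16752203 to 16918158) and Erbb2 (98412470 to 98437716) are on chromosome 11, Erbb3 (128567523 to 128589652, minus strand) on chromosome 10, Tgfa (86195223 to 86275719) on chromosome 6 and Errfi1 (150853919 to 150868892) on chromosome 4. Among these neighbours on chromosome 5, the class with the most UMIs in both mice was the terminally differentiated-like one for Btc and the upper follicle-like one for Areg. Among named classes, Ereg UMIs were most numerous in differentiated-like cells in KO mouse 1 (9) and in upper follicle-like cells in KO mouse 2 (5). Such totals also depend on the size of the class. In KO mouse 2 the Ereg level was 0.703 CPM in upper follicle-like and 4.31 CPM in terminally differentiated-like cells (3 UMIs). Whether the neighbours differ in their pattern was not tested.

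The 250 bases before the annotated start (RefSeq, GRCm38.p6) are shown for the ligands with the most class-bound counts, Tgfa, Areg and Btc, and for Errfi1. RefSeq gives Errfi1 2 starts, of which the downstream one, inside an intron of the longer transcript, is shown. Each runs 5′ to 3′ on the strand of the gene. Capitals mark matches on either strand to a cAMP response element (CRE, TGACGTCA), a TATA box (TATAAA), an AP-1 site (TGANTCA) or a GC box (GGGCGG).
Tgfa, chr6:86194972-86195221, plus strand: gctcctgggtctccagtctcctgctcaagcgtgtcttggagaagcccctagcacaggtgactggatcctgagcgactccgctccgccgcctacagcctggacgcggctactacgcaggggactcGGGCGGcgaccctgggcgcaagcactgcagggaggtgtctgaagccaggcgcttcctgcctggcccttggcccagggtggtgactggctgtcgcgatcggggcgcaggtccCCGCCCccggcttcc
Areg, chr5:91139349-91139598, plus strand: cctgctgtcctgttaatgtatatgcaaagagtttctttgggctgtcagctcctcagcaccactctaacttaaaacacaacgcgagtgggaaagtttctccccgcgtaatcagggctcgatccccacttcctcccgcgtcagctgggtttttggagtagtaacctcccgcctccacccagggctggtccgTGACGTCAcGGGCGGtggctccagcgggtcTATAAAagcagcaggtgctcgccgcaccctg
Btc, chr5:91402995-91403244, minus strand: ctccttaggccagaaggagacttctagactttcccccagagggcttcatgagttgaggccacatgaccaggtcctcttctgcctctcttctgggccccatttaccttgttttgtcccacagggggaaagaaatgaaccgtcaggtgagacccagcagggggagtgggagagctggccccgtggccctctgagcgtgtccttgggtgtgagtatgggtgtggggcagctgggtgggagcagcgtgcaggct
Errfi1, chr4:150854820-150855069, plus strand: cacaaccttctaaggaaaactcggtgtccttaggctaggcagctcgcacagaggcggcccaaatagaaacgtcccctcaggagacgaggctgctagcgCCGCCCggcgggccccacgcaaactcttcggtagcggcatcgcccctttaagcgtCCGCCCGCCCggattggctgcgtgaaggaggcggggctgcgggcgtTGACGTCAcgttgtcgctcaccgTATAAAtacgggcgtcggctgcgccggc

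A CRE was found in the windows of Areg and Errfi1, beginning 61 and 51 bases before the start, and a TATA box followed it at 31 and 28 bases. Of 32851 such promoter windows, 1.55% hold this CRE, 12.4% a TATA box, 6.75% the AP-1 letters and 32.7% a GC box. Tgfa has 2 GC boxes, at 126 and 15 bases, Areg has 1 at 52 and Errfi1 has 3, of which those at 97 and 93 bases overlap. The window of Btc and that of the upstream Errfi1 start hold none of these letters. The table holds windows for 7 of the 10 members, and among the others Epgn has a TATA box at 86 bases and Egfr a GC box at 9. A match is a description of letters and not a bound site.

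The patterns most like those of each member, by Pearson correlation of mean log2 CPM over the 16 classes, are given as a description. The classes share libraries and some share lineage. Ereg was at 2.15 ± 3.05 CPM (SD, n = 2) in terminally differentiated-like and 1.47 ± 1.14 in differentiated-like cells, and at most 0.571 elsewhere. Btc was at 66.0 ± 42.6 CPM in terminally differentiated-like cells and at most 1.09 elsewhere. With a prior of 1 CPM, the correlations of Ereg and Btc rest mostly on these classes. Areg was most like Krt73 (0.96) and Krt25 (0.92), inner root sheath keratins, and then Psors1c2 (0.88). Its own mean was higher in upper follicle-like (6.81 CPM) and terminally differentiated-like cells (6.08, from 6 UMIs). Inner root sheath and hair shaft-like cells had 3.7 ± 2.25 CPM. Ereg was most like Tgm1 (0.98) and Ivl (0.97), cornified envelope genes. Btc was most like Cyp11a1, Lce3d and Sprr2b (0.98 each). Tgfa was most like Cldn3 and Gabrp (0.93 each), Erbb3 like Sypl (0.92) and Ano1 (0.88), and Egfr like Agap3 (0.95) and Mpzl2 (0.94). Erbb2 was most like Slc25a17 (0.95), Hbegf like Tmem43 (0.90) and Errfi1 like Gramd1c (0.84). Among the members, the highest correlations were those of Areg with Ereg and with Tgfa (0.73 each) and of Btc with Errfi1 (0.72). Egfr and Erbb3 had a correlation of 0.02.

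Other genes of the pathway were taken from fixed lists. Of 6 other ligands and receptors, only Egf, Nrg2 and Nrg4 had enough counts to be tested. The neuregulin gene Nrg2 was called lower than in resting basal-like cells in 3 classes. The log2 fold change was -3.93 ± 0.71 in follicle-like (BH-adjusted p = 5.65e-05, edgeR), -6.59 ± 1.93 in sebaceous-like (0.00593) and -2.43 ± 0.68 in upper follicle-like cells (0.00489). Nrg2 had UMIs in both mice in only 11 of 16 classes, and the sebaceous-like fold, with its wide SE, is imprecise. Nrg4, a ligand of ERBB4, was at 16.4 and 9.85 CPM in sebaceous-like cells against 0.107 and 0.123 in resting basal-like cells (log2 fold change 6.65 ± 0.61, BH-adjusted p = 7.59e-10, edgeR). Egf was low everywhere and higher in melanocyte-like cells (3.14 and 4.18 CPM, against 0.643 and 1.23, adjusted p = 0.00295). Erbb4 was at 0.418 CPM or less in each class with enough cells. Of 4 shedding genes, Rhbdf2 was called in 8 of the 9 comparisons. It was lower in terminally differentiated-like than in differentiated-like cells (-1.43 ± 0.32, BH-adjusted p = 0.00098, edgeR) and higher in the others called. It was at 3.43 and 3.56 CPM in resting basal-like, 21.1 and 17.0 in transitional-like, 30.6 and 28.5 in differentiated-like and 59.3 and 46.3 in upper follicle-like cells.

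Of 13 feedback inhibitors, 1 was higher and 4 lower in transitional-like cells, and 2 higher and 6 lower in differentiated-like cells, than in resting basal-like cells, where 28.8% and 51% of all genes were called. Spred2, an inhibitor of RAS signalling, went from 48.3 and 40.5 CPM in resting basal-like to 3.04 and 5.30 CPM in differentiated-like cells (log2 fold change -3.09, BH-adjusted p = 2.27e-13, edgeR). Between terminally differentiated-like and differentiated-like cells 6 of the 13 were higher and none lower, against 13.6% and 16.3% of all genes, and Spred2 was higher by 2.19 (2.33e-05). In follicle-like cells 7 were higher and 4 lower, against 21% and 18.7%. Dusp4, a MAP kinase phosphatase, was higher in melanocyte-like (53.7 and 49.7 CPM) and sebaceous-like cells (53.3 and 48.6) than in resting basal-like cells (0.214 and 0.184). Of 6 target genes, 3 were higher and none lower in terminally differentiated-like than in differentiated-like cells (all genes 13.6% and 16.3%), with Ccnd1, cyclin D1, at 202 and 192 against 32.4 and 62.5 CPM (1.57, 8.49e-06). The terminally differentiated-like class also holds the dividing-cell and follicle genes given above, whose part in these counts was not tested.

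Of the 10 genes of the RAS-MAPK cascade, 2 were higher and 1 lower in transitional-like cells, 5 higher and 1 lower in differentiated-like cells, and 6 higher and 1 lower in upper follicle-like cells than in resting basal-like cells. Of all genes 28.8%, 51% and 43.5% were called in these comparisons, near the shares of the cascade in the first pair. Mapk3, the gene of ERK1, was higher in differentiated-like cells by 1.10 (BH-adjusted p = 2.51e-10, edgeR) and in upper follicle-like cells by 1.60 (3.53e-14). Of 6 adaptors, 2 were higher and 1 lower in differentiated-like cells, against 51% of all genes called, with Gab1 higher by 0.66 (0.00103). Of the 10 stress genes, 9 were lower in dividing basal-like cells and 9 in follicle-like cells, against 14.8% and 18.7% of all genes. In differentiated-like cells 5 were lower and 2 higher, against 23.6% and 27.4%.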

How the data were processed

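Single-cell 3′ libraries of epidermis from 2 Chrm3 KO mice were used. The deposited matrices hold UMI counts per gene and barcode, which the authors made with Cell Ranger 3.0.2 on mm10, without normalization (per the labels). The labels and the study's methods differ on the version of the library chemistry. The members and gene lists were chosen with earlier results of these data known.

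Barcodes were kept at 900 to 7700 detected genes with mitochondrial UMIs below 10%, and clustered with Seurat 5.3.0 in R 4.3.3 (2000 variable genes without the members and pathway genes, 30 dimensions, resolution 0.8). In place of separate clusterings, 1 clustering of all cells was used. A cluster was named from the marker list with the highest mean log2 enrichment (at least 0.2, with at least 3 markers over 0.5), with thresholds set after the clusters were seen. Scrublet (scanpy 1.11.5) marked 2 and 416 cells at its own threshold, 0.0263% and 3.5%, which is too few in KO mouse 1. Cells were therefore kept in the main analysis, and the 463 and 1129 with the highest scores were left out in an alternative.

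Counts were summed per mouse and class (16 classes, 32 sums, at least 20 cells in each mouse) and tested with the quasi-likelihood test of edgeR 4.0.16 (TMM, filterByExpr, 16 residual degrees of freedom, common coefficient of variation 0.0934), with BH adjustment over 13847 genes. The p-values measure a spread between 2 mice that is pooled over the 16 classes, not that of the compared classes alone. The main fit has no term for the mouse. Each SE is the absolute log2 fold change divided by the root of its F value. Poisson and binomial intervals (95%) and limits at 0 (3 counts) cover counting error only. The tests were checked on simulated data, and no result of that check is given here. Sums of the same animal were paired: over 120 pairs of classes the deviations correlated at -0.01 to 0.35 (median 0.07). All 10 members, at most 2 called genes of each pathway list per comparison and the genes most correlated with a member were named. As alternatives, the tests were repeated in DESeq2 1.42.0, with size factors in edgeR, on all genes without the filter, with the mouse blocked, with each mouse left out of the classes compared, without doublets, with a limit of 5% mitochondrial UMIs and at resolution 1.2. Thinning of cells to 3000 UMIs was applied to levels and shares only, so no test was run at equal depth. Cells under 3000 UMIs were left out of it. Leaving out shared barcodes and the cell with the most Btc UMIs, and the groups by Krt79 and Lor, were added after the data were seen. Sebaceous-like cells were left out of the groups by Krt79.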

Additional observations from a re-analysis of the deposited data

How the results depend on the processing

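The 44 called pairs of member and comparison gave 478 values over the alternatives. Of these, 436 kept their direction and their side of the threshold, 40 kept the direction only and 2 turned it. In 24 pairs the call held under every alternative run. Both reversals were Tgfa in Langerhans-like cells, at -0.39 with doublets removed and -0.18 without KO mouse 1 (3.15 without KO mouse 2). With the mouse as a replicate block all 44 calls held, as they did without the shared barcodes. The replicate block gave 4856 genes called in transitional-like cells, against 3990. Under 5% mitochondrial UMIs the members called fell to 2 of 9 in dividing and 3 in sebaceous-like cells. With 1 mouse left out, the members called ranged from 3 to 4 in transitional-like, 4 to 6 in differentiated-like, 1 to 2 in terminally differentiated-like, 1 to 2 in dividing and 3 to 5 in Langerhans-like cells. With doublets removed, mean levels in upper follicle-like cells moved by more than 1 SD to 53.3 CPM for Erbb2, 8.82 for Areg and 68.2 for Tgfa. With cells thinned, they moved to 6.38 for Areg there, 1.38 for Epgn in resting basal-like and 64.8 for Errfi1 in terminally differentiated-like cells. Thinning also moved Erbb2 in terminally differentiated-like cells from 21.7 to 39.4 CPM and Egfr in upper follicle-like cells from 37.7 to 26.6. It left no UMI of Hbegf in terminally differentiated-like or of Areg and Ereg in differentiated-like cells (8.06, 2.05 and 1.47 CPM unthinned).

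The counts of all genes called moved by over 1.5 times under 5% mitochondrial UMIs, to 1708 (transitional-like, from 3990), 4667 (differentiated-like, 7064), 1410 (dividing, 3989), 2442 (follicle-like, 5492), 4217 (melanocyte-like, 7334), 3739 (sebaceous-like, 6622) and 3236 (upper follicle-like, 6025). Without KO mouse 1 and KO mouse 2 they were 2035 and 2304 (transitional-like), 2565 and 2090 (terminally differentiated-like, from 4140), 1792 and 1958 (dividing) and 3447 and 3481 (follicle-like), and 3870 without KO mouse 1 in upper follicle-like cells. Of the calls in dividing cells 48.8% were higher, and 66%, 67.4% and 60.4% under 5% mitochondrial UMIs and without KO mouse 1 or 2. In terminally differentiated-like cells 45.4% were higher with TMM and 56.4% with DESeq2. TMM moved the log2 fold changes there by -0.48 against plain library size. In the other comparisons this move ran from -0.22 (follicle-like) to 0.3 (Langerhans-like), with 0.29 in differentiated-like cells. The causes were not tested. The resolution of 1.2 gave no class of S-phase basal-like cells, so dividing cells were not compared there. Wherever 1 mouse was left out, the lone sums were assumed to vary like those of the other classes. Differences in ligands counted with under 20 UMIs a class are limited by depth, and no effect of the genotype can be read from these libraries.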
